A study of Physcomitrium patens with 4 samples.

Results

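The genes described here are 118 transcripts of the moss Physcomitrium patens whose share of the reads was at most 0.6 times as large after 1 hour of red light as in the dark, both in wild type and in the pubs hy2 double mutant. They were chosen from 32273 genes by measured values. A gene's level in a library was its reads plus 0.5, divided by the sum of reads over all genes. W is the red light level over the dark level in wild type and M is the same fold in pubs hy2. A gene could be chosen if under 10% of its reads mapped to several places in every library and if it had at least 50 reads in both dark libraries, which left 14910 genes. Of these, 1240 (8.32%) had W at most 0.6, 443 (2.97%) had M at most 0.6, and the 118 genes (0.791%) had both. They made up 9.52% of the first list and 26.6% of the second. Because W and M chose these genes, both folds are given as a description, with exact 95% counting intervals and no test.

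Messenger RNA of protonema, the filamentous stage of the moss, was sequenced in 4 libraries of the Gransden2004 ecotype, and the labels name the tissue as chloronema, the chloroplast-rich filament type. All cultures were 10 days old and had spent 3 days in the dark. For each genotype, wild type or pubs hy2 double mutant, 1 library was made at the end of the dark period and 1 after red light, which gave 4 groups of 1 library. The red light came from a 660 nm LED at 5 μmol m-2 s-1, with cultures at 25 °C. The design asks which transcripts respond to a short red light exposure and which responses are altered when phytochrome is deficient. The labels do not say how the mutant line was made or how many lines were used.

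Phytochromes are red and far-red light receptors that need a bound bilin, a linear tetrapyrrole, to absorb light. PUBS and HY2 encode enzymes that make such bilins, and the labels call the double mutant phytochrome-deficient. Red light is also absorbed by chlorophyll, so a plant with little active phytochrome still receives it through photosynthesis. A transcript reduced in both genotypes is therefore one whose lower level after red light was also seen where phytochrome was deficient.

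Each group had 1 library, so no difference between 2 libraries has a replicate check, and higher and lower refer to libraries. The dark libraries were time 0 controls, and none of the 4 libraries stayed dark for the further hour, so red light and the elapsed hour cannot be told apart in either genotype. Fewer cells of a type and less RNA per cell cannot be told apart in such bulk samples. Reads summed over genes came to 17560593 for dark and 24560047 for red-treated wild type, and to 15098951 and 22975725 for the mutant. The files give identifiers with no gene names, and 0 of them matched the RefSeq gene table used here. No function is therefore stated for any gene, the tissue label could not be checked against marker genes, and the PUBS and HY2 transcripts could not be looked up.

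In wild type the folds ranged more widely than in the mutant, as they did over all 14910 genes. The SDs of log2 W and log2 M were 0.77 and 0.30 over the 118 genes, against 0.62 and 0.43 over the 14910. The median W of the 118 genes was 0.431 and the lowest was 0.0463, and the median M was 0.522 and the lowest 0.221. Over all 14910 genes the medians were 0.962 for W and 1.01 for M. W was at most 0.25 in 24 of the 118 genes and at most 0.125 in 7, against 104 and 23 of the 14910. M was at most 0.25 in 2 of the 118 genes and 3 of the 14910, and in 0 of the 14910 genes was it at most 0.125. Both folds were at most 0.5 in 35 genes. W was lower than M in 86 genes and M was lower than W in 32, against 8193 and 6717 of the 14910. Each of the 118 genes had counting intervals below 1 in both genotypes, and in 39 genes the upper ends of both intervals were at or below the limit of 0.6.

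**Figure D1:**
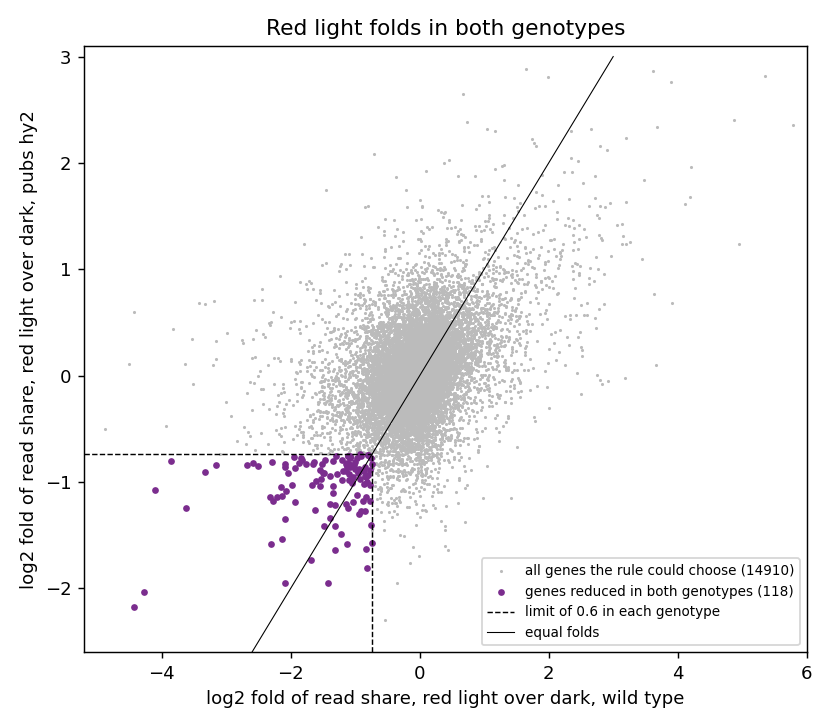
Each point is 1 gene, with the log2 fold of its read share (red light over dark) in wild type on the x axis and in pubs hy2 on the y axis. Grey points are the 14910 genes that could be chosen, and purple points are the 118 genes inside the dashed limit of 0.6 in each genotype. The purple points reach further to the left (lowest W 0.0463) than down (lowest M 0.221).

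The genes were together a small part of each library. They took 0.605% of wild-type reads in the dark and 0.218% after red light, 0.360 times as much. Of the pubs hy2 reads they took 0.495% before and 0.254% after red light, 0.513 times as much. A single gene, Pp1s88_47V6, held 25.5% of their dark reads in wild type but 10.6% in pubs hy2. Without it the shares were 0.451% and 0.181% for wild type, against 0.443% and 0.234% for the mutant.

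The lowest product of both folds belonged to Pp1s20_367V6. Wild type gave 440 dark reads and 28 red light reads, and the mutant gave 215 and 72. Both red light libraries lay below both dark libraries, and W was 0.0463 (interval 0.0299 to 0.0667) and M 0.221 (0.166 to 0.289). Pp1s125_31V6 was alike, with 659 dark and 47 red light reads in wild type, against 363 and 135 in pubs hy2. Its W was 0.0515 (0.0371 to 0.0686) and its M 0.245 (0.199 to 0.299). These were the 2 genes with M at most 0.25, and in both the dark level was higher in wild type while the red light level was higher in pubs hy2.

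In 4 more of the 12 genes with the lowest products, the wild-type fold was under 0.1 and the mutant fold was between 0.422 and 0.575. Pp1s44_37V6 had 1020 and 83 reads in wild type (98.5 and 5.63 RPKM, reads scaled by gene length and library size) and 577 and 418 in pubs hy2 (65.1 and 30.8 RPKM). Its W was 0.0585 (0.0459 to 0.0728) and its M 0.476 (0.419 to 0.541). Pp1s116_30V6 had 1674 dark and 233 red light reads in wild type, against 1318 and 1070 in pubs hy2, with W 0.0997 and M 0.534. Its dark levels were close, at 40.0 RPKM for wild type against 36.9 for pubs hy2, and its red light levels were apart, at 3.91 and 19.6. Pp1s88_174V6 had 57 dark and 6 red light reads in wild type, against 332 and 213 in pubs hy2. Its W of 0.0808 rests on 6 reads, with an interval of 0.0265 to 0.174, and its M was 0.422. Pp1s130_124V6 had 262 dark and 25 red light reads in wild type, against 2905 and 2543 in pubs hy2, with W 0.0695 and M 0.575. For these last 2 genes both mutant libraries lay above both wild-type libraries, so the red light level in pubs hy2 exceeded the dark level in wild type.

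The other 6 of these 12 genes had wild-type folds between 0.112 and 0.235. Pp1s266_1V6 had nearly the same fold in both genotypes, with 71 dark and 23 red light reads in wild type, against 133 and 52 in pubs hy2, and W 0.235 and M 0.258. Pp1s26_282V6 had 245 dark and 78 red light reads in wild type, against 369 and 193 in pubs hy2, with W 0.229 and M 0.344. Both of these genes were higher in pubs hy2 than in wild type under the same light. Pp1s21_27V6 had 391 dark and 110 red light reads in wild type, against 130 and 66 in pubs hy2, with W 0.202 and M 0.335, and was higher in wild type under both. Pp1s90_202V6 had 860 dark and 188 red light reads in wild type, against 148 and 126 in pubs hy2, with W 0.157 and M 0.560. Its dark level in pubs hy2 was 5.10 RPKM, against wild-type levels of 25.4 RPKM in the dark and 3.89 RPKM after red light. Pp1s49_282V6 had W 0.199 and M 0.454, with 1525 dark and 425 red light reads in wild type, against 657 and 454 in pubs hy2. Its red light levels, 9.23 RPKM for wild type against 10.7 for pubs hy2, were closer to each other than its dark levels of 47.2 and 23.8. Pp1s46_9V6 had 220 dark and 34 red light reads in wild type, against 113 and 96 in pubs hy2, with W 0.112 and M 0.559.

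**Figure D2:**
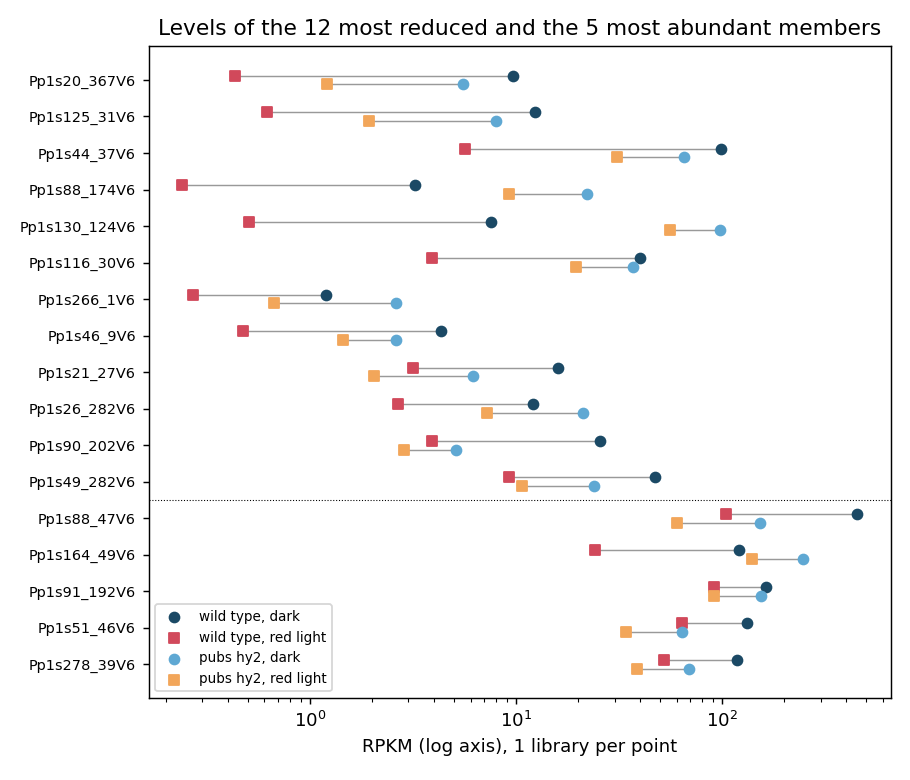
RPKM on a log axis in each of the 4 libraries for the 12 genes with the lowest product of the folds (above the dotted line) and the 5 with the highest mean RPKM (below it). A circle is a dark library, a square a red light library, and a grey line joins the 2 libraries of a genotype. The wild-type lines are longer than the mutant lines for 11 of the upper 12 genes and Pp1s266_1V6 has lines of nearly equal length.

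The 5 most abundant of the 118 genes had W between 0.204 and 0.574 and M between 0.394 and 0.598, with narrow intervals. Pp1s88_47V6 had 27082 and 8902 reads in wild type (449 and 104 RPKM) and 7900 and 4738 in pubs hy2 (153 and 60.0 RPKM). Its W was 0.235 (0.229 to 0.241) and its M 0.394 (0.380 to 0.409). The red light level in wild type stayed above that in pubs hy2. Pp1s164_49V6 was ordered the other way, with 121 and 24.2 RPKM in wild type, against 247 and 140 RPKM in pubs hy2. Its M of 0.570 (0.547 to 0.593) left the mutant after red light above the wild type in the dark. Pp1s91_192V6 had close levels in the genotypes, namely 162 and 91.5 RPKM in wild type, against 154 and 91.6 RPKM in pubs hy2, with W 0.574 (0.556 to 0.593) and M 0.598 (0.578 to 0.619). Pp1s51_46V6 had 131 and 63.7 RPKM in wild type, against 63.4 and 34.2 RPKM in pubs hy2, so its dark level in the mutant was about its red light level in wild type. Pp1s278_39V6 had 118 and 52.2 RPKM in wild type, against 69.1 and 38.5 RPKM in pubs hy2, with W 0.451 and M 0.561.

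The size of the fold was compared between genotypes by M/W, which is above 1 where the gene was less reduced in pubs hy2. M/W uses the values that chose the genes and is also a description. It was at least 2, with a 95% counting interval above 1, in 24 of the 118 genes, against 8.06% of 18329 measured genes (at least 50 reads in 1 of the 4 libraries) and 5.44% of the 14910. It was at most 0.5 with an interval below 1 in 0 of the 118, against 4.94% and 2.84%. With TMM factors or DESeq2 size factors 1 gene passed this lower limit. With both folds at most 0.6, an M/W of at most 0.5 needs a low M, and one of at least 2 needs a low W. The lower quartile over the 118 genes was 0.280 for W and 0.441 for M. The rule and these folds thus largely set both counts, and the shares of all genes are no test of them. The 24 genes had a median W of 0.206 and a median M of 0.549. In the other 94 genes the medians were 0.467 and 0.517. In 63 of all 118 genes the interval of M/W included 1, which does not show that the folds were equal.

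M/W was highest in Pp1s130_124V6, at 8.28 (5.50 to 12.5), followed by Pp1s44_37V6 at 8.14 (6.30 to 10.5) and Pp1s116_30V6 at 5.35 (4.57 to 6.27). All 3 are among the genes with the lowest W described above. It was lowest in Pp1s183_100V6, at 0.501 (0.307 to 0.817), which had 188 dark and 150 red light reads in wild type, against 65 and 28 in pubs hy2. Pp1s124_112V6 followed at 0.561 (0.357 to 0.884), with 86 dark and 72 red light reads in wild type, against 104 and 53 in pubs hy2. The third was Pp1s237_83V6 at 0.575 (0.416 to 0.795), with 583 dark and 457 red light reads in wild type, against 129 and 63 in pubs hy2. These 3 genes were more reduced in the mutant, and each had under 100 reads in the pubs hy2 red light library.

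**Figure D3:**
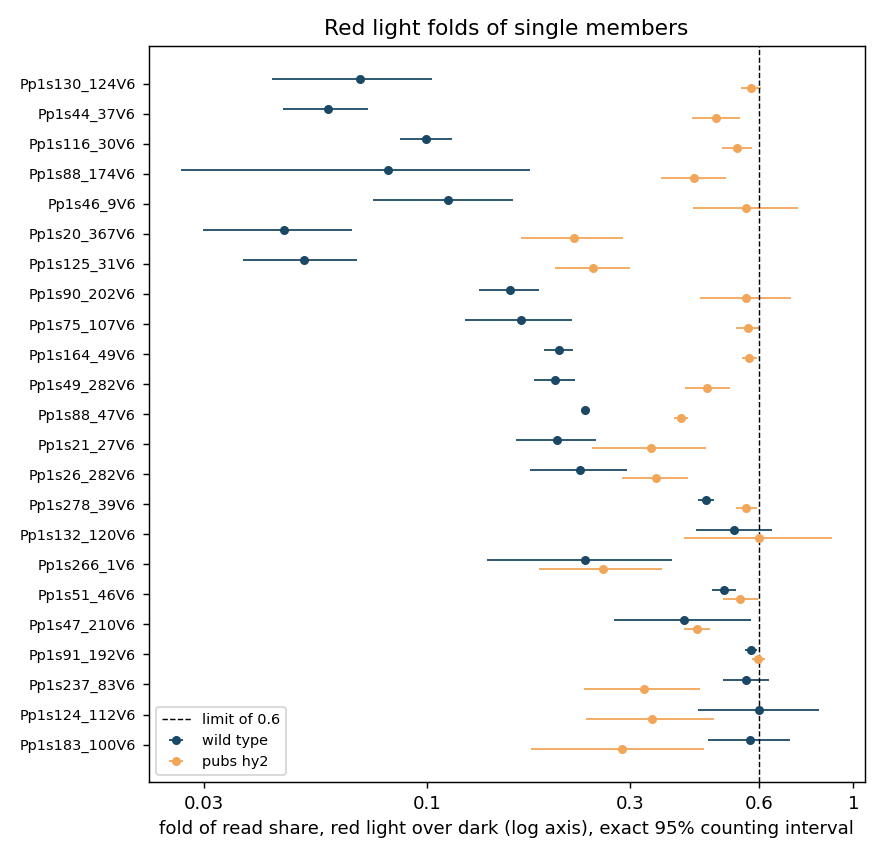
Fold of the read share, red light over dark, on a log axis for the 23 named genes among the 118, in wild type (dark blue) and pubs hy2 (orange), with exact 95% counting intervals that cover counting error only. Genes are ordered by M/W, from the highest (8.28) at the top to the lowest (0.501) at the bottom. The intervals of the 2 genotypes are far apart for the upper genes, while Pp1s266_1V6, Pp1s47_210V6 and Pp1s132_120V6 have intervals that overlap widely.

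Whether these genes also differed in level between the genotypes was tested on the same 4 libraries, so not apart from the light folds. The genotype term of an additive model of genotype and light sets 2 libraries against 2, fitted over all genes with edgeR's quasi-likelihood test. At an adjusted p under 0.05, 25 of the 118 genes (21.2%) were higher in pubs hy2 and 14 (11.9%) were lower. Of all 20409 genes tested, 14% were higher and 9.08% lower. Among the 14910 genes that could be chosen, 2077 were higher and 1575 lower. Together these were 24.5% of the 14910, against 33.1% of the 118. The median log2 difference was 0.13 over the 118 genes and -0.06 over the 14910. These calls depended on the tool: limma on log2(RPKM + 0.1) called 0 of the 118 genes (49 had an unadjusted p under 0.05), and limma on log2(RPKM + 1) called 15 higher and 4 lower. DESeq2 called 23 higher and 11 lower. Without TMM factors edgeR's split was 22 higher and 19 lower of the 118, and 2506 and 2507 of all genes. The error of this model includes the difference between W and M, the values that chose the genes, so the shares are not free of the rule. The SD of log2 M/W was 0.76 over the 118 genes and 0.59 over the 14910. Since the labels name no separate cultures, the p-values reflect only how far these libraries vary.

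The largest differences were increases in the mutant. Pp1s47_210V6 had 86 dark and 48 red light reads in wild type, against 2006 and 1313 in pubs hy2, a log2 difference of 4.91 (SE 0.19, adjusted p = 0.000906). Both mutant libraries lay far above both wild-type libraries, while its folds were alike, with W 0.401 and M 0.430. Pp1s130_124V6 had a log2 difference of 5.08 (SE 0.73, adjusted p = 0.00942) and Pp1s75_107V6 one of 4.11 (SE 0.44, adjusted p = 0.00426) by the same test. Pp1s75_107V6 had 264 dark and 61 red light reads in wild type, against 2074.93 and 1784 in pubs hy2, where the authors' estimated counts need not be whole. Pp1s88_174V6 was higher by 3.78 (SE 0.60, adjusted p = 0.0124).

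Decreases in the mutant were smaller. Pp1s237_83V6 was lower in pubs hy2, with a log2 difference of -2.24 (SE 0.30, adjusted p = 0.00740). Pp1s183_100V6 had -1.69 (SE 0.43, adjusted p = 0.0424). Pp1s132_120V6 had 230 dark and 169 red light reads in wild type, against 56 and 51 in pubs hy2, a log2 difference of -1.62 (SE 0.33, adjusted p = 0.0245). Of the 5 most abundant genes, Pp1s88_47V6 (-1.09, adjusted p = 0.0357) and Pp1s51_46V6 (-0.89, adjusted p = 0.0163) were lower in pubs hy2, and Pp1s164_49V6 was higher (1.86, adjusted p = 0.0223). Pp1s278_39V6 (adjusted p = 0.0896) and Pp1s91_192V6 (adjusted p = 0.880) did not pass. Pp1s20_367V6, Pp1s125_31V6 and Pp1s44_37V6, the 3 genes with the lowest products of W and M, had log2 differences of 0.28, 0.47 and 0.91 and did not pass (adjusted p = 0.743, 0.549 and 0.386). Their ratios of pubs hy2 to wild type in the dark were 0.569, 0.641 and 0.658. In red light these ratios were 2.72, 3.05 and 5.36. A single genotype term averages such opposite ratios and takes their difference as error. Not passing therefore does not show equal levels.

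**Figure D4:**
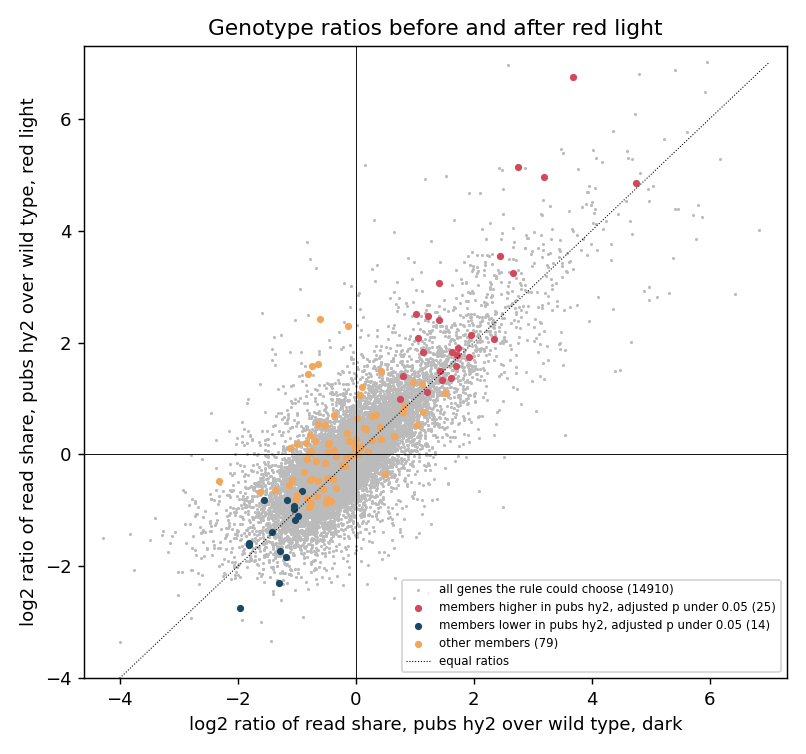
Log2 ratio of the read share in pubs hy2 over wild type in the dark (x axis) and in red light (y axis). Grey points are the 14910 genes that could be chosen. Among the 118 genes, red and dark blue points passed the quasi-likelihood test of genotype (25 higher and 14 lower), and the orange points did not. The 10 genes whose order crossed beyond both counting intervals are orange points in the upper left part, below 0 in the dark and above 0 in red light.

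The genotypes were also compared library by library with a size rule, which needs a fold of at least 2 and an exact counting interval that excludes 1 and is no test. In the dark, 27 of the 118 genes (22.9%) were higher in pubs hy2 and 19 (16.1%) were lower, against 12.1% and 13% of 17522 measured genes and 9.01% and 10.2% of the 14910. Which side was larger depended on the fold and the split on the scaling. At a fold of 1.5, 33 were higher and 43 lower, with DESeq2 size factors it was 28 and 12, and with totals without the most abundant genes 24 and 22. With no limit on the fold, the dark level was higher in pubs hy2 in 49 of the 118 genes and lower in 69. The 49 were 41.5% of the 118, near the 39.1% of the 14910. In red light, 35 (29.7%) were higher and 9 (7.63%) lower, against 14.6% and 11.8% of 18167 measured genes and 10.8% and 9.39% of the 14910. These red light shares are not free of the rule, since the red light ratio is the dark ratio times M/W. M/W was above 1 in 72.9% of the 118 genes and 54.9% of the 14910. Of the 27 and the 19, 25 were higher and 8 were lower again in red light. The matching share of the 14910 genes was not computed. The Pearson correlation of the log2 ratios in the dark and in red light was 0.86 over the 118 genes and 0.79 over the 14910. The 27 genes had wild-type medians of 6.15 RPKM in the dark and 1.48 after red light, and mutant medians of 21.2 and 10.6. For the 19 genes the wild-type medians were 24.6 and 7.84 and the mutant medians 7.73 and 4.48.

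The highest dark ratios of pubs hy2 to wild type were 27.0 for Pp1s47_210V6 (21.9 to 34.1), 12.9 for Pp1s130_124V6 (11.4 to 14.7) and 9.13 for Pp1s75_107V6 (8.04 to 10.4). In red light the ratio of Pp1s47_210V6 was 28.9 and thus within its dark interval. Those of the other two were 107 (73.5 to 168) and 31.0 (24.2 to 41.0). The lowest dark ratios were 0.201 for Pp1s90_202V6 (0.167 to 0.239), 0.258 for Pp1s237_83V6 (0.211 to 0.312) and 0.285 for Pp1s132_120V6 (0.208 to 0.381). In red light they were 0.717, 0.148 and 0.325 in that order.

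Both dark levels lay above both red light levels in 84 of the 118 genes, a separation that the choice of genes fixes in part. In 24 genes the red light level of pubs hy2 exceeded the dark level of wild type, and in 10 the red light level of wild type exceeded the dark level of pubs hy2. These counts were not compared with all genes that could be chosen. Because W and M were at most 0.6, the highest of the 4 levels had to be a dark one and the lowest a red light one. Which genotype held them therefore restates the genotype order under each light. The highest was dark wild type in 69 genes and dark pubs hy2 in 49. The lowest was red light wild type in 72 genes and red light pubs hy2 in 46. The red light level was thus higher in pubs hy2 in 61.0% of the 118 genes, against 43.1% of all genes that could be chosen. That share depends on M/W and so on the folds that chose the genes.

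In 10 genes the genotype order crossed: the level was lower in pubs hy2 in the dark and higher in red light, each beyond its counting interval. Of the 14910 genes, 3.73% did so. The opposite crossing was found in 0 of the 118 genes and 2.09% of the 14910. The SD of the log2 ratio of pubs hy2 to wild type over the 118 genes was 1.23 in darkness and 1.49 after red light, against 0.89 and 0.93 over the 14910. The red light ratio is the dark ratio times M/W, so the direction of the crossing is not independent of the folds that chose the genes.

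By level, the 118 genes were most numerous among the genes with the lowest dark RPKM, and next among those with the highest. Ranked by mean dark RPKM and divided into 5 equal bins, the 14910 genes left the bins holding 39, 16, 20, 14 and 29 of the 118, from the lowest bin (up to 6.29 RPKM) to the highest (from 34.3 RPKM). The median mean RPKM was 8.81, against 14.2 over the 14910 genes. With a minimum of 200 reads in both dark libraries, 59 genes were left.

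The 118 genes included 13 short gene models. The median length was 1.99 kb, against 1.88 kb over the 14910, and these 13 were under 0.5 kb, 11.02% of the 118 against 2.27%. The shortest, Pp1s89_288V6 (0.096 kb), had 67 dark and 29 red light reads in wild type, against 101 and 46 in pubs hy2, with W 0.312 and M 0.301. Pp1s387_60V6 (0.309 kb) had the most reads of the 13 in the wild-type dark library, with 831 against 417 after red light, and gave 346 and 198 reads from the mutant, with W 0.359 and M 0.376. Among the 13 genes the median W was 0.451 and the median M 0.455, and the wild-type dark reads ranged from 64 to 831. These 2 genes were named after their values were seen.

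Where the genes lie was read from their identifiers. Identifiers of this form give a scaffold and a number on it, and that the numbers follow the order of genes was assumed here. The 118 genes lay on 97 of the 535 scaffolds that held any of the 14910 genes. Of the 97 scaffolds, 80 held 1 of them, and the most on 1 scaffold was 3. Among genes numbered directly before or after one of them, 53 could themselves have been chosen and 2 were, against 0.791% of the 14910. These 2 are a single pair, Pp1s7_330V6 and Pp1s7_331V6, which are next to each other. Both are 0.156 kb long. Pp1s7_330V6 had 213 dark and 64 red light reads in wild type, against 246 and 170 in pubs hy2, and Pp1s7_331V6 had 112 and 58 in wild type, against 199 and 78 in pubs hy2. They differed in which genotype had the lower fold, with W 0.216 and M 0.455 for the first and W 0.372 and M 0.259 for the second. The protocol states no step that keeps strand, and overlap of such close, short models was not tested. The other 51 neighbours had a median W of 0.916 and a median M of 0.980, and 6 (11.8%) had W at most 0.6 and 2 (3.92%) had M at most 0.6, against 8.32% and 2.97% of the 14910.

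The limit of 0.6 separated genes of nearly equal folds. Just inside it, by the larger of W and M, were Pp1s124_112V6 (W 0.599), Pp1s132_120V6 (M 0.599) and Pp1s91_192V6 (M 0.598). Just outside were Pp1s13_9V6 with W 0.312 and Pp1s55_231V6 with W 0.372, both with M barely above the limit, and Pp1s78_70V6 with W 0.465 and M 0.602. Pp1s13_9V6 had 221 dark and 96 red light reads in wild type, against 288 and 263 in pubs hy2.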

How the data were processed

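Per the file headers, the authors deposited for each gene an estimated count (exactly whole for 93.5% to 93.8% of the genes with a read, per library), an RPKM value, the fraction of reads with several mapping places and, as another column, the length in kilobases. The sums over genes were 10.5% to 12.6% below the library totals that the RPKM values imply. Aligner, genome build and annotation are not given in the sources used here. W, M and the genotype ratios used the deposited reads as they are, and counts were rounded for intervals (Clopper-Pearson, 95%) and fits. PCR copies cannot be told from molecules, so intervals cover counting error only.

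The genotype term was fitted with edgeR 4.0.16 (R 4.3.3; TMM, filterByExpr, quasi-likelihood test, 1 residual degree of freedom, Benjamini-Hochberg over all genes). DESeq2 1.42.0 and limma 3.58.1 on log2(RPKM + 0.1) and log2(RPKM + 1), for genes with a mean RPKM of at least 0.1, were alternatives. Scripts were tested on simulated data. Python 3.11.15, pandas 2.3.3 and scipy 1.17.1 did the rest.

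Named genes were, among the 118, the 12 with the lowest product of W and M, the 5 with the highest mean RPKM, the 3 at each end of M/W and of the dark genotype ratio, and the 3 nearest the limit on each side. Lists by product name and promoter motifs could not be used without names or sequences. The members and lists were chosen with earlier results of these data known.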

Additional observations from a re-analysis of the deposited data

Results flagged for a closer look

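For 5 named genes the pubs hy2 to wild type ratio ran in opposite directions in the dark and in red light, each beyond its counting interval, and the difference was not tested, since each group had 1 library. The red light ratio over the dark ratio, which equals M/W, was 4.78 for Pp1s20_367V6 (0.569 in the dark and 2.72 in red light), 4.76 for Pp1s125_31V6 (0.641 and 3.05) and 8.14 for Pp1s44_37V6 (0.658 and 5.36). It was 5.35 for Pp1s116_30V6 (0.916 and 4.90) and 4.99 for Pp1s46_9V6 (0.599 and 2.99). These 5 genes were named for low products of W and M, which favours a low W and so a high ratio. The dark ratio of Pp1s116_30V6 was near 1, with an interval of 0.851 to 0.985.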

How the results depend on the processing

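The number of genes chosen depended most on the limits. It was 35 with a fold limit of 0.5, 383 with 0.7, 59 with at least 200 dark reads, and 39 where the upper ends of both intervals had to be at or below 0.6 (an alternative added after seeing the data), against 118. Scaling mattered less: TMM, DESeq2 size factors, totals without the 100 most abundant genes and the authors' RPKM gave 120, 133, 119 and 132 genes, and 109 of the 118 were kept under each of these 4. Thinning to the smallest library kept 105 of the 118. For the genotype test, limma on log2(RPKM + 0.1) called 0 of the 118 genes (49 at an unadjusted p under 0.05) and 0 of all genes, and limma on log2(RPKM + 1) called 19 (15 higher and 4 lower), against 39 with edgeR and 34 with DESeq2. Over all genes, limma on log2(RPKM + 1), edgeR and DESeq2 called 1895, 4707 and 4033. The cause of these differences was not tested. A fold limit of 1.5 in place of 2 gave 76 genes apart in the dark (33 higher and 43 lower in pubs hy2), 70 in red light and 40 by M/W, against 46, 44 and 24. Total reads put the median log2 dark ratio of the 14910 genes at -0.18, against -0.07 with TMM. In all, 25 of 34 alternative counts were within 1.5 times. No pairing of libraries by culture was possible because each group has 1 library and the labels carry no replicate numbers. The genotype fit compared the genotypes within each light. Leaving out a library would leave no residual degree of freedom. Depth limits genes such as Pp1s88_174V6, with 6 reads in 1 library.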
